A study of Mus musculus with 6 samples.

Results

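The tight junction genes examined here were 9 in number: the claudins Cldn1, Cldn3, Cldn5, Cldn10, Cldn12 and Cldn15, occludin (Ocln), the scaffold gene Tjp1 and the adhesion molecule gene F11r. Every probe set that the platform annotation ties to 1 of these symbols alone was taken, which gave 18 of the 45037 probe sets of the array. Expression was measured in brown adipose tissue (BAT), the fat depot that burns fuel to make heat, of 3 mice lacking KRAP (KO) and their 3 wild-type (WT) littermates, so that each KO mouse had a WT partner and the pairs are numbered 1 to 3. All 6 animals were 32 weeks old and ate normal chow, and each gave 1 Affymetrix mouse genome array. KRAP is a protein that associates with the actin cytoskeleton. In the KO allele a stretch of its exons had been replaced by a neomycin resistance cassette in every tissue, so the loss is not confined to brown adipocytes. The line studied was kept on C57BL6/J, although this is not said of the array animals in particular. The genes were selected on the KO and WT signals of these same 6 arrays, whose contrast was already known. Their differences are therefore given as a description, without a test, and support nothing beyond the values themselves.

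Tight junctions seal the space between neighbouring cells and set which ions and solutes can pass. Claudins are the membrane proteins that form their strands. Some claudins tighten the seal and others form pores, and the mix of claudins differs between cell types. In fat the best known tight junctions are those of the blood vessel endothelium, whereas adipocytes themselves form no epithelial sheet.

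Each signal below is a multiple of the median of its own array, and these medians were 16.5 to 20.4 intensity units. Probe sets with a mean signal above 1 were taken as measured well enough for a comparison, which held for 22356 of all probe sets and for 8 of the 18 described here, from 6 of the 9 genes. Levels of different probe sets cannot be set against each other, because each binds with its own strength. One library differed from the rest in RNA quality measures: WT 2 had an 18S ribosomal RNA intensity of 1731, where the other 5 arrays had 112.4 to 214.9, and its actin control ratio (3' end over 5' end) was 3.80, where theirs was 1.91 to 2.58. The same kind of ratio for the pyruvate carboxylase control was 52.9 in WT 2 and 22.1 to 25.3 in KO 2, KO 3 and WT 3. It was lower in pair 1, at 10.7 in KO 1 and 8.99 in WT 1. Where pair 2 decided the difference of 1 of the 9 genes, the value without it is given too. The 1 probe set for KRAP itself, under its current symbol Itprid2, read 35.1 to 47.0 in KO and 42.2 to 56.6 in WT, and its place relative to the deleted part is unknown here, so it does not check the genotype labels. The brown adipocyte markers were bright on all arrays, with a sum over 9 genes of 2830 to 3610 in KO and 2880 to 3660 in WT.

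The sequence around the start of Cldn1 is shown because it was the member with by far the largest difference between the genotypes, and that of Cldn5 because it was the only other brightly measured member that differed in the same direction in every pair. Both genes lie on mouse chromosome 16. The windows, from RefSeq on GRCm38.p6, hold 250 bases before and 50 bases after the start of each gene, written 5′ to 3′ on the strand of the gene. They are chr16:26371790-26372089 on the minus strand for Cldn1 and chr16:18776597-18776896 on the plus strand for Cldn5. Capitals mark the GC box GGGCGG or its reverse complement CCGCCC, the core letters bound by Sp1-type factors.
Cldn1: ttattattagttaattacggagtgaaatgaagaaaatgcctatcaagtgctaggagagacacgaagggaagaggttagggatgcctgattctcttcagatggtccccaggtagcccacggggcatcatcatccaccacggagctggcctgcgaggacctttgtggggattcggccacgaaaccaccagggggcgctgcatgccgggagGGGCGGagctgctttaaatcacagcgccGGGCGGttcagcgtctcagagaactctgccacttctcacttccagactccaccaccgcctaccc
Cldn5: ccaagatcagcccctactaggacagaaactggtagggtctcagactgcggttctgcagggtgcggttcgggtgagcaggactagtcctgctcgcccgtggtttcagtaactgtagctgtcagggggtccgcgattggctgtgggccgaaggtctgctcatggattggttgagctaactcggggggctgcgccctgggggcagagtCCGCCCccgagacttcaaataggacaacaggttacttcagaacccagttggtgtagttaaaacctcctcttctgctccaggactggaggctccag
The Cldn1 window held 2 GC boxes and the Cldn5 window 1. All 9 genes had a GC box in at least 1 of their 13 windows, 11 of which held one, against 35.7% of all 32851 promoter windows of this length in the same table. The E-box CACCTG or its reverse complement CAGGTG, the letters read by the Snail and Zeb repressors of junction genes, was found in 4 of the 13 windows, those of Cldn3, F11r and both starts of Ocln, against 20.2% of all windows. It was not found in the Cldn1 or Cldn5 windows. The TATA letters TATAAA or TTTATA were in 0 of the 13 windows and in 13.6% of all windows. These are matches of letters and not measured binding.

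Cldn1 encodes a barrier-forming claudin that is abundant in epidermis and other epithelia and in liver. Its gene spans chr16:26356645-26371839 (GRCm38.p6), and 4 probe sets carry its symbol. The brightest, 1437932_a_at, read 4.84, 7.58 and 8.13 in KO 1 to 3, against 0.98, 1.83 and 2.81 in WT 1 to 3. The lowest KO array was above the highest WT array, so the genotypes did not overlap. The means were 6.85 ± 1.76 in KO and 1.87 ± 0.916 in WT (SD, n = 3 each). The KO over WT ratios were 4.94 in pair 1, 4.14 in pair 2 and 2.89 in pair 3, a log2 difference of 1.96 ± 0.39 (mean and SD of the 3 pairs), or 3.90-fold.

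The second Cldn1 probe set above the filter, 1450014_at, read 2.42, 1.84 and 2.33 in KO 1 to 3, against 0.548, 0.723 and 0.399 in WT 1 to 3. It was dimmer than the first and again did not overlap between the genotypes. All 3 WT signals were below the array median, so this probe set, the only 1 of the 8 with a WT mean under 1, passed the filter through its KO signals alone and had to differ to be among them. Its pair ratios were 4.42, 2.54 and 5.84, a log2 difference of 2.01 ± 0.61 and a fold of 4.03. The probe sets ordered the pairs differently, since pair 3 had the smallest ratio on the brighter probe set and the largest on the dimmer one. Among the 22356 probe sets above the filter, these differences ranked 16 and 14 from the top. Because this contrast helped to choose the genes, nothing is read from the ranks. Without pair 2 the differences were 1.92 and 2.34. With any 1 pair left out the values for the 2 probe sets stayed between 1.74 and 2.34. With a pseudocount of 1 in place of a floor, which shrinks dim signals, they were 1.47 and 1.04. The other Cldn1 probe sets lay at the bottom of the signal range. 1438850_at read 0.0177 to 0.189 and was below a floor of 0.25 on all 6 arrays, and 1438851_x_at read 0.00725 to 0.398, with 3 of 6 signals below the floor. Signals this low do not order the genotypes. Where each of the 4 probe sets lies on the transcript is unknown here.

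**Figure D1:**
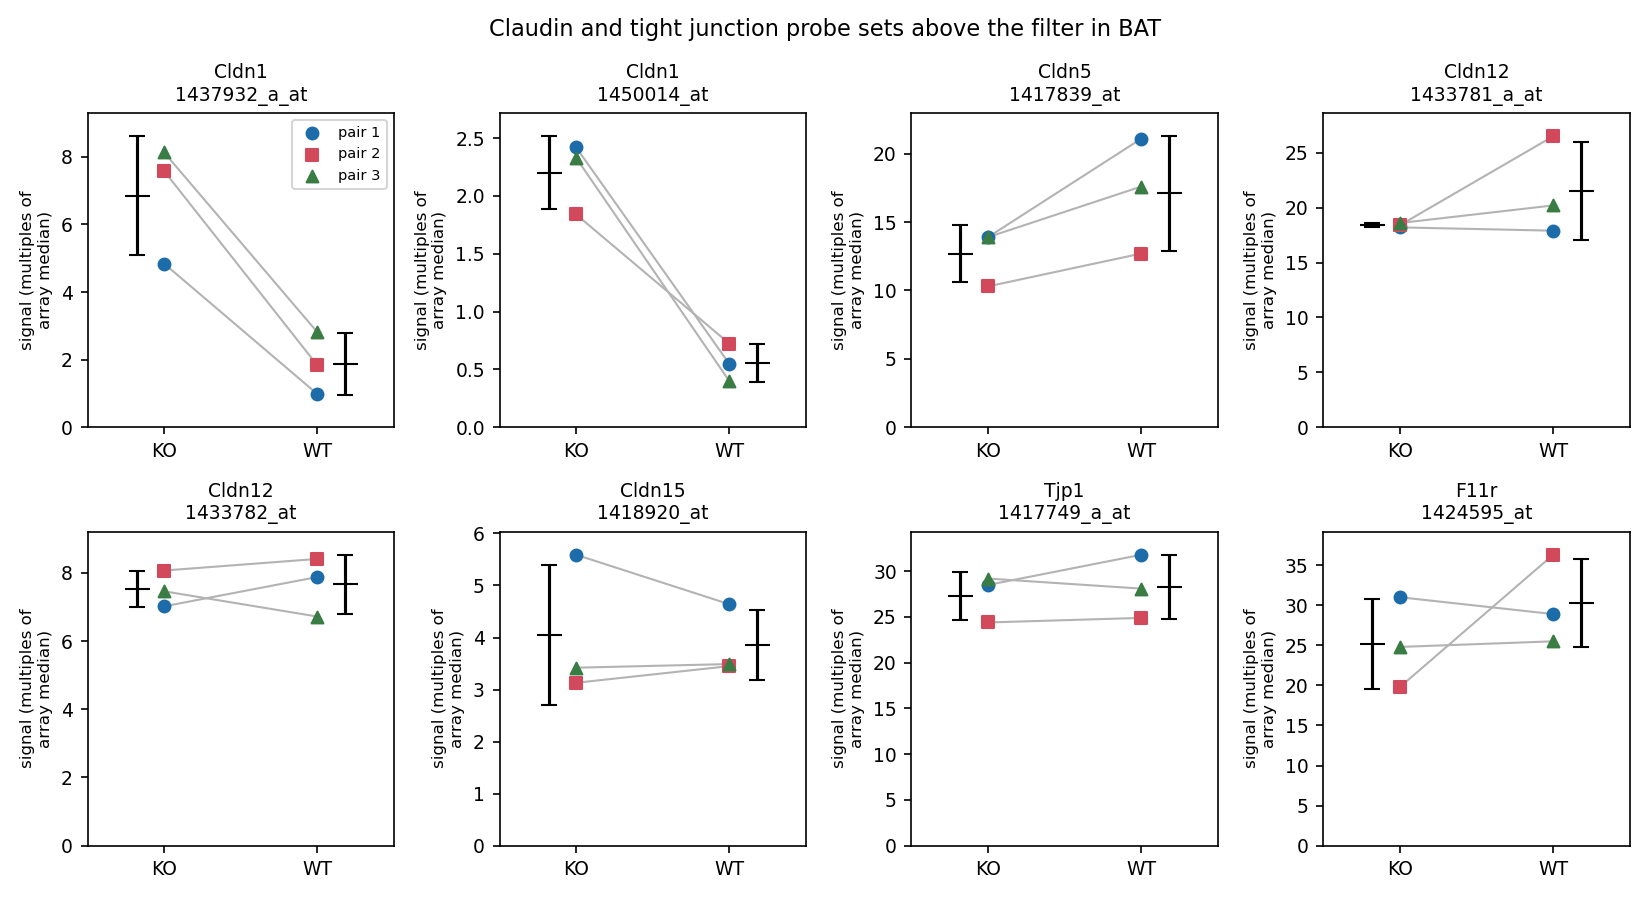
The 8 claudin and tight junction probe sets above the filter in BAT, with KO on the left and WT on the right of each panel and the signal, in array medians, on linear axes from 0. Coloured points are arrays, grey lines connect the animals of a pair, and black bars are means with SD (n = 3 each). Both Cldn1 probe sets lie higher in KO without overlap (means 6.85 and 1.87, and 2.20 and 0.557), whereas the other 6 overlap.

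Cldn5 encodes the main claudin of endothelial cells, best known for closing the blood-brain barrier. The gene spans chr16:18776847-18778262, and its 1 probe set, 1417839_at, read 13.9, 10.3 and 13.9 in KO 1 to 3, against 21.1, 12.7 and 17.6 in WT 1 to 3. Within each pair the KO animal read lower, but the 2 ranges overlapped, because WT 2 lay below KO 1 and KO 3. The means were 12.7 ± 2.10 in KO and 17.1 ± 4.18 in WT (SD, n = 3 each). The pair ratios of 0.662, 0.807 and 0.789 corresponded to a log2 difference of -0.42 ± 0.16, 1.33-fold lower, and the difference was -0.47 without pair 2. In bulk tissue, fewer cells of a type and less RNA per cell cannot be told apart, and this holds for every gene described here.

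Endothelial markers other than Cldn5 were read beside it. All 10 were above the filter, and 0 of 10 passed the adjusted test in the fit over all probe sets. Their summed signal was 76.4 to 92.4 in KO and 83.7 to 110 in WT, with a median log2 difference of -0.16 over the list, against -0.052 over all probe sets above the filter. Of the 10, 4 were lower in KO in all 3 pairs, as were 18.4% of all probe sets above the filter, and 0 were higher in all 3, as were 12.4%. The largest differences were those of Kdr (-0.41), a receptor for vascular endothelial growth factor, Flt1 (-0.39), another such receptor, Tie1 (-0.37), a receptor tyrosine kinase, and Cdh5 (-0.36), the cadherin of endothelial adherens junctions, with limma adjusted p between 0.673 and 0.705. Without pair 2, Kdr was at -0.18, Flt1 at -0.12 and Tie1 at -0.30, and without pair 3 Cdh5 was at -0.17. Pecam1, an adhesion molecule of endothelial contacts, read 5.60, 4.58 and 5.58 in KO 1 to 3, against 5.11, 4.92 and 5.08 in WT 1 to 3. Its ranges overlapped and its log2 difference was 0.05 (adjusted p = 0.961). The part of endothelial content in the Cldn5 difference was not tested.

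Cldn3, a barrier-forming claudin of gut, kidney and gland epithelia, has its gene at chr5:134986214-134987476. It was dim on all 4 of its probe sets, and none reached the filter. 3 of them, 1426332_a_at, 1451701_x_at and 1460569_x_at, read at most 0.322 on any array. The fourth, 1434651_a_at, just missed the filter with a mean of 0.910. It read 0.924, 2.60 and 0.266 in KO 1 to 3, against 1.18, 0.139 and 0.343 in WT 1 to 3. Only KO 2 and WT 1 exceeded the array median. The pair ratios of 0.782, 10.4 and 0.776, in which the WT 2 signal was set to the floor, had a log2 mean of 0.89 ± 2.16, which was -0.36 without pair 2. The direction of the mean therefore rested on pair 2 alone.

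Cldn10 (chr14:118787871-118874525), whose splice forms make channels for cations or anions, was represented by 1426147_s_at, which lay below the array median on all 6 arrays. It read 0.230, 0.492 and 0.387 in KO 1 to 3, against 0.0658, 0.570 and 0.0863 in WT 1 to 3, and 3 of these 6 signals were below the floor. The ranges overlapped.

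Cldn15 (chr5:136967869-136975845), the cation pore claudin of the small intestine, was measured well enough on its 1 probe set, 1418920_at. It read 5.59, 3.13 and 3.42 in KO 1 to 3, against 4.64, 3.45 and 3.49 in WT 1 to 3. Both animals of pair 1 were higher than the other 4, while within pairs the ratios were 1.20, 0.908 and 0.982. The log2 difference was 0.03 ± 0.21, which turned to -0.08 without pair 1. The arrays thus differed more between pairs than between genotypes on this probe set. Pair 1 also had the lowest pyruvate carboxylase control ratios, so litter and RNA quality cannot be told apart here.

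Cldn12 (chr5:5505015-5514976), an atypical claudin that lacks the terminal motif by which other claudins bind ZO scaffolds, had 2 probe sets, both above the filter. 1433781_a_at read 18.2, 18.4 and 18.6 in KO 1 to 3, against 17.9, 26.5 and 20.2 in WT 1 to 3. The KO animals were within 1.02-fold of each other, and the highest value was that of WT 2, the array with the unusual controls. The log2 difference of -0.21 ± 0.28 became -0.05 without pair 2. The dimmer 1433782_at read 7.02, 8.07 and 7.46 in KO 1 to 3, against 7.88, 8.41 and 6.72 in WT 1 to 3. Its log2 difference was -0.02 ± 0.16 and turned to 0.05 after quantile normalization and 0.04 with signals as deposited, so neither probe set separated the genotypes.

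Occludin (Ocln, chr13:100496504-100552718), the first membrane protein found in tight junctions, regulates their tightness in epithelia and is not needed to form strands. Its probe sets, 1440220_at and 1448873_at, read below the array median on every array. 1440220_at read 0.254, 0.230 and 0.290 in KO 1 to 3, against 0.877, 0.214 and 0.264 in WT 1 to 3. The WT 1 array was the only one clearly above the floor, and the log2 difference of -0.55 ± 1.07 was 0.07 without pair 1. 1448873_at read 0.0285 to 0.386 in KO and 0.0771 to 0.312 in WT, with 3 of 6 signals below the floor.

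F11r (chr1:171437561-171464593) encodes junctional adhesion molecule A, an immunoglobulin-type protein of endothelial, epithelial and blood cells. Its bright probe set, 1424595_at, read 31.0, 19.8 and 24.8 in KO 1 to 3, against 28.9, 36.3 and 25.5 in WT 1 to 3. Pairs 1 and 3 had ratios of 1.07 and 0.970 and pair 2 one of 0.546, where the KO value was the lowest and the WT value the highest of all 6. The log2 difference of -0.27 ± 0.53 turned to 0.03 without pair 2. The dim probe set 1436374_x_at gave the opposite picture, with 0.853, 0.660 and 0.799 in KO 1 to 3, against 0.456, 0.0504 and 0.458 in WT 1 to 3. The genotypes did not overlap on it. Its pair ratios were 1.87, 2.64 and 1.74, with WT 2 set to the floor, which gave a log2 difference of 1.03 ± 0.32, and of 0.85 when pair 2 was left out. All 6 signals were below the array median, and probe sets with this kind of suffix can bind other transcripts by the maker's naming. The disagreement between both F11r probe sets means that no direction is given for the gene.

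Tjp1 (chr7:65296165-65527850) encodes ZO-1, the scaffold that ties claudins, occludin and JAM-A to the actin cytoskeleton. Its 1 probe set, 1417749_a_at, was one of the steadiest among the members, with 28.5, 24.4 and 29.2 in KO 1 to 3, against 31.8, 24.9 and 28.1 in WT 1 to 3. The ranges overlapped throughout. The log2 difference was -0.04 ± 0.11, and it lay between -0.09 and 0.03 over all the alternatives tried, turning positive after quantile normalization, with signals as deposited and without pair 1.

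**Figure D2:**
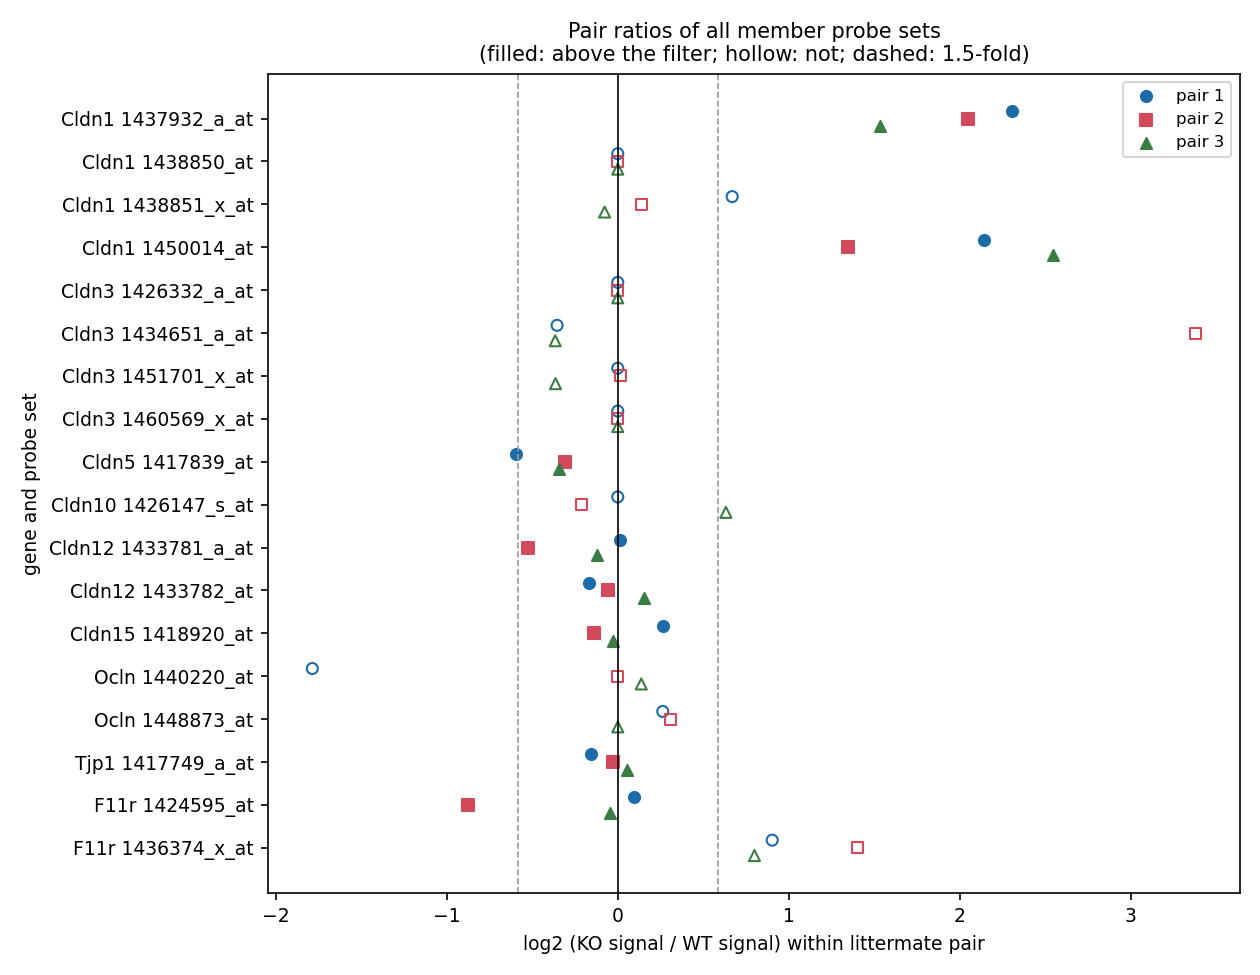
KO over WT ratios on a log2 axis for all 18 claudin and tight junction probe sets, with 1 symbol per littermate pair. Filled symbols are the 8 probe sets with a mean signal above the array median, hollow ones the 10 below it, where signals under 0.25 were set to 0.25, and dashed lines mark 1.5-fold. Only the Cldn1 probe sets 1437932_a_at and 1450014_at and the dim F11r probe set 1436374_x_at lie beyond 1.5-fold in all 3 pairs.

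Counted over the 8 probe sets above the filter, 2 were higher in KO in all 3 pairs, both of Cldn1, where 12.4% of all probe sets above the filter were, and 1 was lower, that of Cldn5, where 18.4% were. The other 5 went both ways. By the study's own rule of 1.5-fold in each of the 3 pairs, the 2 Cldn1 probe sets were higher, against 0.555% of all, and 0 were lower, against 0.819%. Without a filter on low signals the dim F11r probe set joined them, 3 of 18, where 0.853% of all 45037 probe sets were called higher and 0.939% lower. The same 2 Cldn1 probe sets were the ones above the filter that did not overlap between genotypes, with KO above WT, as did 4.59% of all and KO below WT in 7.16%. Because this contrast helped to choose the genes, nothing is read from these shares. The median log2 difference over the 8 probe sets was -0.03, beside -0.052 over all. In the limma fit with the pair as a term, 0% of the 22356 probe sets reached the adjusted threshold of 0.05, the lowest adjusted p being 0.117, while before adjustment 8.55% had a p under 0.05. A robust variance model with a trend on intensity called 311 of all probe sets, a pseudocount in place of the floor 123 and the fit without pair 1 224.

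Liver cells are rich in Cldn1, and hepatocyte markers were not equal between the arrays. The summed signal of 8 hepatocyte markers was 4.80, 3.57 and 58.2 in KO 1 to 3, against 3.82, 3.87 and 3.99 in WT 1 to 3. The KO 3 array had by far the highest sum. Alb (serum albumin) read 1.18, 1.06 and 28.5 in KO 1 to 3, against 0.772, 0.640 and 0.997 in WT 1 to 3, so that it was higher in KO in all 3 pairs, with ratios of 1.53, 1.65 and 28.6 and no overlap. Apoa1, an apolipoprotein below the filter, was also higher in KO in all 3 pairs without overlap. Its ratios of 1.10, 2.54 and 15.6 were taken with all 3 WT signals set to the floor. Ttr, a thyroid hormone carrier made by liver, read 14.7 in KO 3 and 0.0136 to 0.0665 on the other arrays. The third marker above the filter, Apoa2, an apolipoprotein of high-density lipoprotein, read 6.41 in KO 3 and 1.51 to 2.44 elsewhere. It was lower in KO in pair 2 (ratio 0.787). Of the markers below the filter, Apob was lower in KO in pairs 1 and 2 (ratios 0.517 and 0.291). Fgb and Ahsg exceeded the floor in KO 3 alone, and Tat in KO 1 alone. Without pair 3 the log2 differences of Cldn1 were 2.18 on the brighter and 1.74 on the dimmer probe set. The part of hepatocyte RNA in the Cldn1 difference was not tested.

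Epithelial cells are the other common source of Cldn1. Of 9 epithelial markers, 3 reached the filter and all 9 together summed to 6.34 to 8.13 in KO and 5.08 to 8.50 in WT, so the ranges overlapped. The defining epithelial cadherin Cdh1 averaged 0.270 in KO and 0.162 in WT, and Krt5, Krt14, Krt18 and Krt19, keratins of epithelial cells, averaged below the array median in both genotypes. Epcam, an epithelial adhesion molecule, had a log2 difference of -0.49 (limma adjusted p = 0.703), Elf3, an epithelial transcription factor, one of 0.44 (adjusted p = 0.613) and Krt8, a keratin of simple epithelia, one of -0.13 (adjusted p = 0.954). The 6 mesothelial markers summed to 3.17 to 3.98 in KO and 3.21 to 3.54 in WT, with 1 above the filter, Lrrn4 (0.38, adjusted p = 0.686). Nerve sheath cells also build claudin-based junctions. The 4 Schwann cell markers with a probe set summed to 63.4 to 76.1 in KO and 83.6 to 136 in WT, without overlap. Of these markers, only S100b separated the genotypes by itself. S100b, a calcium-binding protein that adipocytes also make, read 22.6, 14.9 and 20.1 in KO 1 to 3, against 49.1, 71.7 and 43.1 in WT 1 to 3 (log2 difference -1.50, adjusted p = 0.396, and -1.11 without pair 2), whereas Sox10, Pmp22 and Mbp overlapped between the genotypes. Sox10 went the other way from S100b, higher in KO in all 3 pairs (log2 difference 0.28, limma adjusted p = 0.716). S100b passed with a pseudocount of 1 (limma adjusted p = 0.00993), a filter above 2 (0.0369), a trended robust variance (0.00184) and without pair 1 (0.00892). Skeletal muscle RNA varied most, with a sum of 16.0 to 559 in KO, highest in KO 2, and 44.1 to 212 in WT. The part of any of these in the member differences was not tested.

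**Figure D3:**
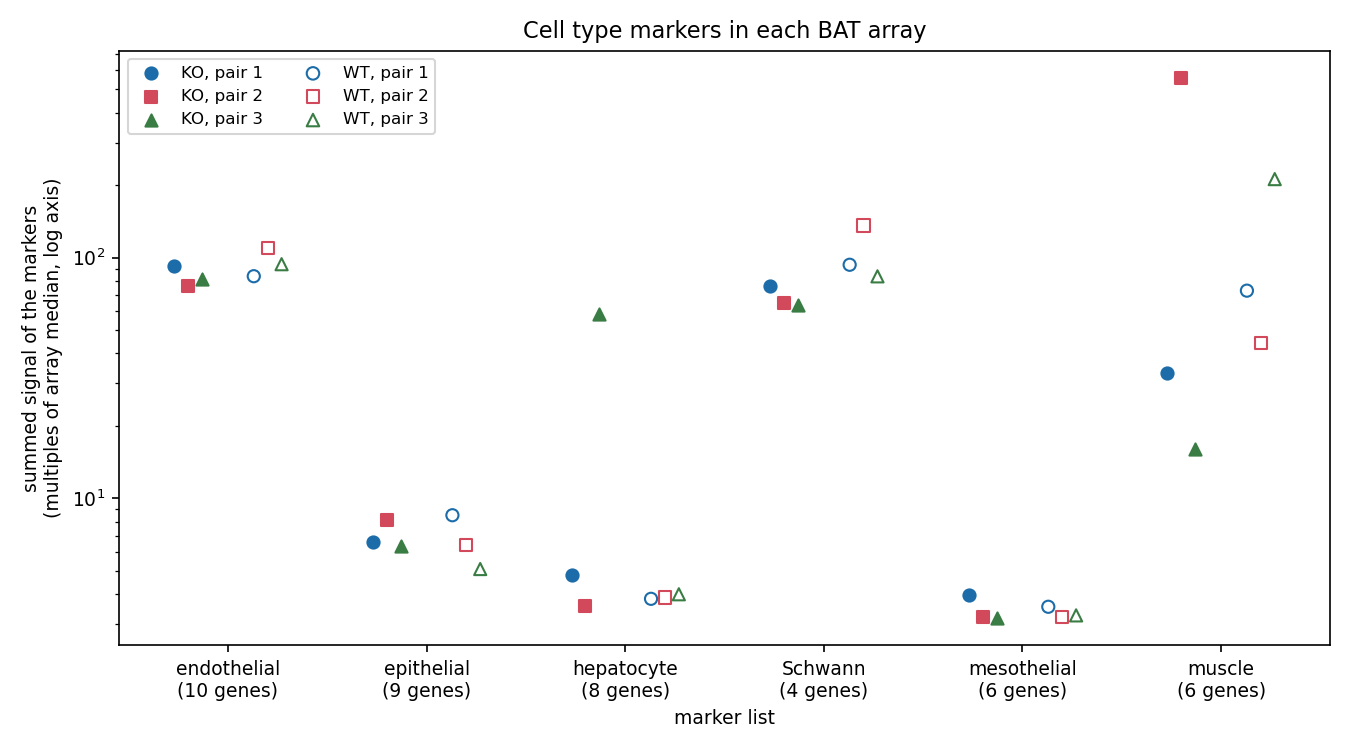
Summed signals of 6 cell type marker lists in each BAT array, in array medians on a log axis, with KO arrays as filled symbols on the left of each column and WT arrays as open symbols on the right. The hepatocyte sum of 58.2 in KO 3 stands apart from 3.57 to 4.80 on the other arrays, whereas the endothelial and epithelial sums overlap between the genotypes.

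The wider junction machinery was then read by role. It held 83 listed genes of other claudins, other junction membrane proteins, scaffold and polarity proteins, transcription factors and adherens junctions, of which 78 had a probe set named here and 49 had one above the filter. The brightest was taken for each gene. With limma 0 of the 49 passed the adjusted test in either direction, and 4 (8.16%) had an unadjusted p under 0.05, beside 8.55% of all probe sets. In all 3 pairs 4 genes (8.16%) were higher in KO and 13 (26.5%) lower, beside 12.4% and 18.4% of all. The median log2 difference was -0.12 over the 49 and -0.052 over all, and without pair 2 it was -0.059 over the junction genes and 0.014 over all. By pair, the medians were -0.09, -0.26 and -0.07 for these genes and -0.03, -0.19 and 0.06 for all probe sets in pairs 1 to 3.

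Among the other claudins, 15 had a probe set and 13 of them did not reach the filter, with mean signals of 0.0823 to 0.736. They included Cldn2 (0.756 in KO and 0.716 in WT), a cation pore of leaky epithelia, Cldn11 (0.114 and 0.124), the claudin of myelin, and Cldn19 (0.198 and 0.201), the claudin of Schwann cells. The 2 above the filter were Cldn22, with a log2 difference of -0.11 (adjusted p = 0.921), and Cldnd1, a claudin-domain gene, with 0.13 (adjusted p = 0.899). Neither of these 2 came near the size of the Cldn1 difference.

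Of 13 other membrane proteins, 8 were above the filter, with a median of -0.11. Ildr2, of the angulin family that marks corners where several cells meet, read 2.55, 2.12 and 2.50 in KO 1 to 3, against 1.68, 1.29 and 1.49 in WT 1 to 3. The genotypes did not overlap and each pair differed by at least 1.5-fold, with a log2 difference of 0.69 ± 0.08, which did not pass (adjusted p = 0.440). Crb3, an apical polarity protein, had a difference of -0.22, Marveld1, a member of the family of occludin, one of -0.20, and Esam, an endothelial adhesion molecule related to F11r, one of -0.18, and all had overlapping ranges and adjusted p between 0.853 and 0.887. The closest relatives of F11r, Jam2 and Jam3, had differences of -0.07 and -0.14.

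Scaffold and polarity genes had a median of -0.20 over the 19 of 24 above the filter. In all 3 pairs 6 were lower in KO and 0 higher, beside 18.4% and 12.4% of all probe sets above the filter. The summed signal over all 24 scaffold and polarity genes was 226 to 247 in KO and 261 to 300 in WT and did not overlap. Among single probe sets above the filter, 7.16% had KO below WT without overlap. Mpdz, which encodes the many-PDZ-domain scaffold MUPP1 that binds claudins, read 8.09, 13.4 and 12.5 in KO 1 to 3, against 15.2, 26.2 and 21.2 in WT 1 to 3. It was at least 1.5-fold lower in each pair, with a log2 difference of -0.88 ± 0.11 (adjusted p = 0.399), and -0.84 without pair 2. It passed with a pseudocount of 1 (limma adjusted p = 0.0478) and with a trended robust variance (0.00678). Arhgef2, which encodes a protein held at junctions, read 3.65, 2.42 and 3.04 in KO 1 to 3, against 4.10, 6.14 and 5.70 in WT 1 to 3, again without overlap (log2 difference -0.81 ± 0.60, adjusted p = 0.496, and -0.54 without pair 2). Afdn, the actin-binding afadin, and Amotl1, an angiomotin family member, had differences of -0.51 and -0.49 with overlapping ranges (adjusted p = 0.564 and 0.584). Tjp3 and Cgn, scaffolds typical of epithelia, stayed below the filter at 0.487 and 0.623 in KO and 0.555 and 0.325 in WT.

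Of 14 transcription factors known to act on junction genes, 11 were above the filter, with a median of -0.11. Snai2 and Zeb1, repressors of claudin and occludin genes, had log2 differences of -0.08 and 0.04 (adjusted p = 0.949 and 0.976), and Snai1, another such repressor, was below the filter, at 1.03 in KO and 0.581 in WT. Sox18, an endothelial factor known to act on Cldn5, read 5.97, 11.4 and 13.3 in KO 1 to 3, against 6.39, 21.1 and 20.5 in WT 1 to 3. It was lower in KO in all 3 pairs with overlapping ranges (-0.54 ± 0.40, adjusted p = 0.586). Hnf4a, a factor of liver and gut epithelia, had a difference of 0.57 ± 0.95 (0.03 without pair 1), and Twist1, a mesenchymal factor, one of -0.42 ± 0.55 (-0.11 without pair 2), with adjusted p of 0.703 and 0.696.

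Of 12 adherens junction genes, 9 were above the filter, with a median of -0.26. In all 3 pairs 4 were lower in KO and 0 higher, beside 18.4% and 12.4% of all probe sets above the filter. Among the 4 was Cdh5, which is also on the endothelial list. Ctnna1, the alpha-catenin that couples cadherins to actin, read 54.6, 73.0 and 71.3 in KO 1 to 3, against 76.6, 119 and 76.4 in WT 1 to 3, so its ranges did not overlap (-0.43 ± 0.31, adjusted p = 0.638, and -0.29 without pair 2). Among the genes above the filter, Nectin1, an adhesion molecule of adherens junctions, had the largest difference at -0.78 ± 1.33. Its pairs disagreed in direction, and the difference was -0.02 without pair 1. Below the filter, Cdh3 was at -1.47 ± 0.20, with 0.0542 to 0.253 in KO and 0.635 to 0.828 in WT. All its signals were below the array median, and 2 were below the floor. Vcl, the actin linker vinculin, had a difference of -0.31, which was -0.06 without pair 2.

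**Figure D4:**
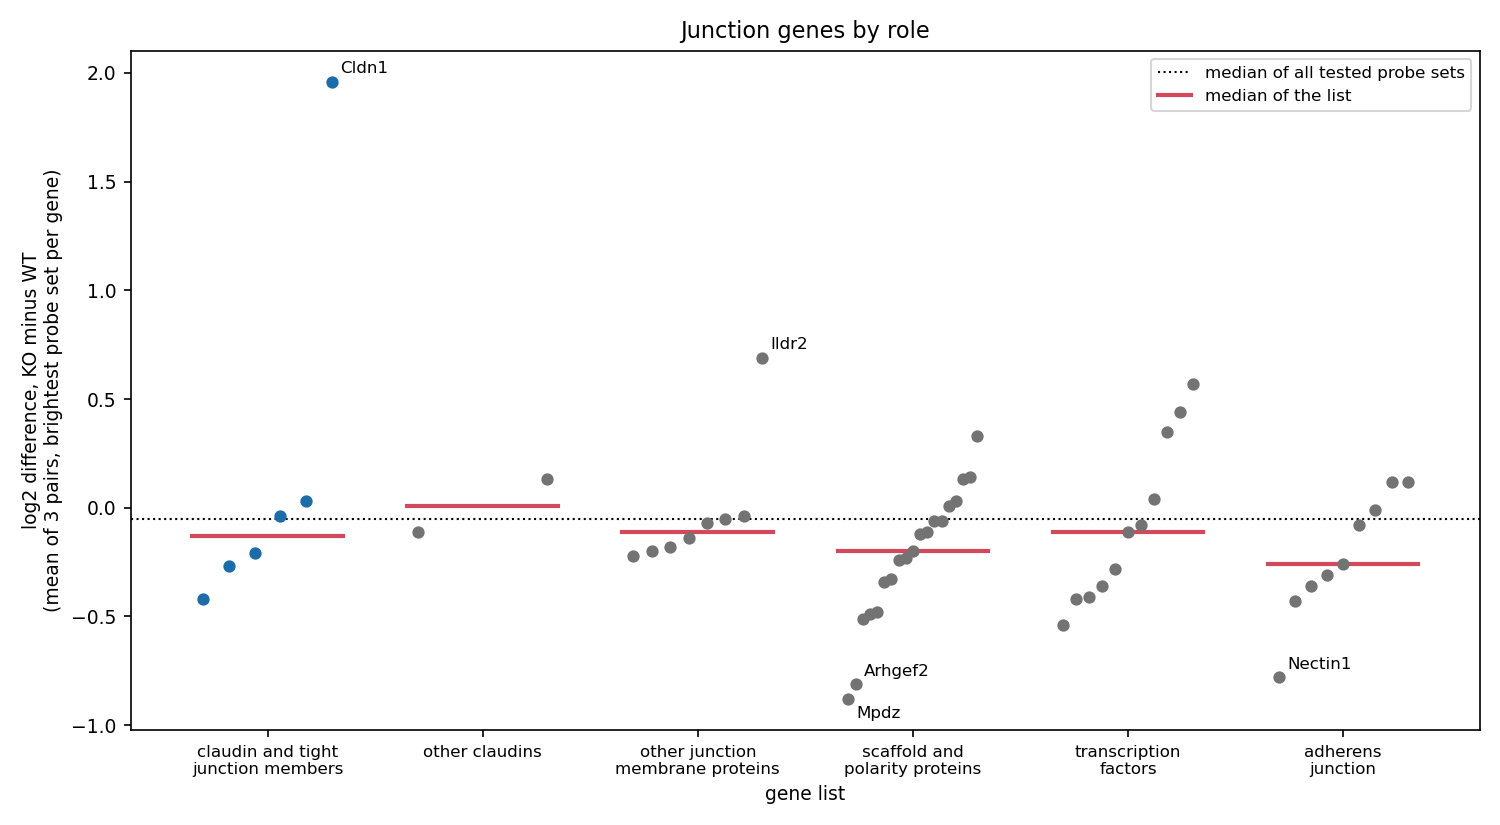
Log2 differences (KO minus WT, mean of 3 pairs, brightest probe set above the filter for each gene) of the claudin and tight junction genes and of 5 wider junction lists. Points are genes, red bars are list medians and the dotted line is the median of all probe sets above the filter, -0.052. Cldn1 at 1.96 lies apart from every other junction gene plotted, which run from -0.88 to 0.69.

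The genes whose pattern over the 6 arrays was closest to the brightest Cldn1 probe set were found by the root mean square distance between log2 signals, each centred on its mean. They were Cdr2l (0.308), Arhgef25 (0.350), Cd247 (0.356), the T cell receptor zeta chain, Bcl6 (0.363), a transcriptional repressor, and Tfrc (0.384), the transferrin receptor. Bcl6 and Tfrc were bright among them. Bcl6 read 34.6, 38.6 and 28.9 in KO 1 to 3, against 5.71, 13.3 and 19.4 in WT 1 to 3. Tfrc read 9.11, 9.55 and 7.64 in KO 1 to 3, against 1.95, 3.19 and 4.95 in WT 1 to 3. In both, as in Cldn1, all KO arrays exceeded all WT arrays and WT 1 was the lowest. The search picks genes with this pattern, so the likeness is not a further result. Cdr2l (0.269 to 0.629 in WT) and Arhgef25 (0.195 to 0.836 in WT) passed the filter only through their KO signals. Cd247, with 0.201, 0.628 and 1.28 in WT 1 to 3, also had a WT mean under 1 and needed its KO signals to pass. Its genotypes overlapped, with 1.17 in KO 1 and 1.28 in WT 3. The second Cldn1 probe set stood at 0.674, farther than any of these 5, so the order of arrays within a genotype was not shared by the 2 Cldn1 probe sets. For Cldn5 the closest were Rorb (0.0731) and Gpr146 (0.0835), an orphan nuclear receptor and a G protein-coupled receptor, followed by Grin2d (0.0919), Ddx6 (0.103) and Usp1 (0.106). The 5 closest to Cldn5 were lower in KO in every pair, which follows from choosing them by nearness to Cldn5 on these arrays. These distances describe 6 arrays and were searched over 22356 probe sets.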

How the data were processed

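Total RNA from BAT of 3 KO and 3 WT mice was put on 1 array per animal, without pooling. The authors deposited linear signal intensity values that GCOS produced, per the labels, with version and algorithm unstated. The median scaling of the study's methods was not yet in these values, since array medians differed.

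After 64 control probe sets were left out, signals were scaled to each array's median, values under 0.25 were raised to 0.25 and log2 was taken, so folds near that floor are understated. limma 3.58.1 (R 4.3.3) was used on probe sets averaging above 1, with terms for genotype and pair, and p-values were adjusted by Benjamini-Hochberg at 0.05. The series' design text names 3 littermate pairs by number. Residuals about the group means had a correlation of 0.446 in pair 1, 0.0847 in pair 2 and 0.160 in pair 3. Between KO and WT animals of different pairs it ran from -0.36 to 0.28. The highest of these, KO 2 with WT 3, was above pairs 2 and 3, so only pair 1 stood out. Log2 differences are KO minus WT. The p-values rest on 3 animals per genotype, and the number of arrays limits the precision. The fit was tested on simulated data.

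Gene names came from the platform annotation, in which 34945 probe sets carried 1 symbol, 932 several and 9160 none. Of these, 34741 matched GRCm38.p6 by gene identifier, with 0 renamed. The members and lists were chosen with earlier results of these data known. Named were all members, up to 4 genes of each list with the largest differences above the filter, and the 5 genes closest in pattern to Cldn1 and to Cldn5. Genes named for their role after their values were seen were Pecam1, Jam2, Jam3, Snai1, Snai2, Zeb1, Itprid2 and those described as below the filter. Listed genes with no probe set named here were not analysed here. Alternatives were other scalings, a lower floor, a pseudocount, other filters, a trended robust variance, no pair block, the mean over probe sets of a gene and each pair left out.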

Additional observations from a re-analysis of the deposited data

How the results depend on the processing

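Dim signals limit these results, since 10 of the 18 member probe sets lay below the filter. With a floor of 0.1 the differences of 5 of them moved by more than 1 SD of the pairs. Among these, Cldn1 1438850_at and Cldn3 1460569_x_at had an SD of 0, with all 6 signals below the floor. For them any change counted. The count of all probe sets past the adjusted threshold, 0 as reported, was 123 with a pseudocount of 1, 40 with a filter above 2, 311 with a trended robust variance, 0 without the pair as a block and 0 to 224 with 1 pair left out, the highest without pair 1. The cause was not tested. With the pseudocount, 1 of the other junction genes passed, Mpdz, which also passed with the trended robust variance. Without pair 1, which leaves 2 pairs, the hepatocyte markers Alb, Apoa1 and Ttr passed, all highest in KO 3. In pair 2 both Ttr signals were below the floor, so its call rests on pair 3. Apoa1 was below the filter as reported. Probe sets at 1.5-fold in every pair numbered 124 higher and 183 lower as reported, 49 and 73 with the pseudocount, 384 and 423 without a filter, and 68 higher with a filter above 2. With 1 pair left out, which asks for 2 pairs only, they numbered 367 to 413 higher and 373 to 762 lower. Of 126 alternative values of member differences, 115 moved by no more than 1 SD of the pairs and 11 moved more. The other sign was seen in 11, over 7 probe sets, none of them 1.5-fold in every pair. Leaving out 1 of 3 pairs cannot move a mean by 1 SD, so those alternatives were among the 115 in advance. Cldn3 1434651_a_at, which went from 0.89 to -0.36 without pair 2, was counted there. Where the SD was 0, any change counted among the 11. The 2 Cldn1 differences were 1.47 and 1.04 with the pseudocount, which shrinks dim signals by construction. The median of the other junction genes lay between -0.200 and -0.047.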
